A study of Mus musculus with 12 samples.

Results

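The 32 genes described here carry glucose into the cell, turn it into pyruvate and lactate, and pass pyruvate to the mitochondrion. They were chosen by gene name for these roles, with earlier results of these data known. They make up 33 of the 55450 rows of the deposited gene table. All 32 symbols passed the filter on low counts. Aldoa has a second row, at most 0.249 CPM (read counts scaled to a common library total) and not tested, and all Aldoa values below are from the first.

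RNA was sequenced from 12 libraries of mouse thymus, 4 for each of 3 sorted CD4+ populations, and the series title asks about the role of Eos, the transcription factor encoded by Ikzf4, in recirculating thymic Tregs. All animals were CD4-Cre x Foxp3-GFP mice, so every group carries a Cre recombinase driven by the Cd4 promoter and a green reporter of Foxp3. A floxed allele, age and sex are not given in the sources used here. Eos+ Tregs, listed with the genotype Eos+, were sorted as CD4+Foxp3+Ccr6+Cxcr4+ cells. Eos- Tregs were CD4+Foxp3+Ccr6-Cxcr4- cells, and Tconvs (conventional T cells) were CD4+Foxp3- cells. The surface receptors stood in for Eos in the sort. Each library began with 1 ng of total RNA. The labels do not say that replicates came from separate animals, so the p-values rest on the spread over 4 libraries a group, part of which may be technical.

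Each library held 23.9 to 37.9 M expected counts. Ikzf4 stood at 292 to 334 CPM in Eos+ Tregs, 155 to 181 CPM in Eos- Tregs and 22.7 to 27.4 CPM in Tconvs. The 3 libraries numbered 1 stood apart in several ways. Foxp3 was 55.0 and 53.3 CPM in the 2 Treg libraries numbered 1 and 485 to 862 CPM in the other Treg libraries, although the summed level of 8 Treg markers there, 4123 and 2562 CPM, was far above the 402 to 557 CPM of Tconvs. The red cell and granulocyte markers summed to 390 to 537 CPM in the libraries numbered 1 and to at most 44.7 CPM in the others, with Elane at 0 everywhere. The 16 proliferation markers summed to 413 to 899 CPM in Eos+ Tregs, 206 to 821 CPM in Eos- Tregs and 619 to 939 CPM in Tconvs, with replicate 1 highest in each group. Eos- Treg replicate 1 lay apart from its group on the second principal component, at 19.4 against -84.8 to -60.7. It also held the highest value of its group for 15 of the 32 genes. Where leaving out the libraries numbered 1 ends or adds a call, this is given beside the gene.

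Glycolysis splits glucose into pyruvate in the cytosol. An early part spends ATP to phosphorylate and cleave the sugar, and a later part from Gapdh onwards gains ATP and NADH. Lactate dehydrogenase turns pyruvate into lactate, which leaves the cell through monocarboxylate transporters, while the mitochondrial pyruvate carrier and pyruvate dehydrogenase lead pyruvate to the citrate cycle, with the dehydrogenase kinases as its brake. In T cells the pathway rises on activation, and its use by Tregs differs with their state and tissue. HIF-1, whose alpha subunit is encoded by Hif1a and is controlled largely by protein stability, binds a short core motif and switches on many of these genes when oxygen is low.

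The promoter windows of a few genes on which the results turn are shown, since the core motif of HIF-1 is part of the known control of this pathway. Windows run from 250 bases before to 50 bases after a start site and are from RefSeq (build GRCm38.p6), on the strand of the gene. Capitals mark ACGTG or GCGTG on either strand. Tpi1 lies at chr6:124814109-124814408 on the minus strand, Pgam1 at chr19:41911621-41911920, Aldoc at chr11:78322823-78323122, Hif1a at chr12:73907617-73907916 and Pdk1 at chr2:71872974-71873273, the latter 4 on the plus strand.
Tpi1: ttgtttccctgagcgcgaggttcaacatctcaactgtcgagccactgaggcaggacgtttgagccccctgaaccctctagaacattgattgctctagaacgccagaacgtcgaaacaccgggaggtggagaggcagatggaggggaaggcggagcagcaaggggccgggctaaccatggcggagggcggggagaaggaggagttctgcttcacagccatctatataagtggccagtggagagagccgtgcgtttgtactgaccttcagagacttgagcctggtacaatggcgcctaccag
Pgam1: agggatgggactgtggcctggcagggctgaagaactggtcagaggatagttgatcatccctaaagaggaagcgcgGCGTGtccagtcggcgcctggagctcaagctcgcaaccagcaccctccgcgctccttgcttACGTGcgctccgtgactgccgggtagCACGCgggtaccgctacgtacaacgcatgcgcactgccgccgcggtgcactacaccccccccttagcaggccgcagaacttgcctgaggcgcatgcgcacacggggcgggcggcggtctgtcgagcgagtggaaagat
Aldoc: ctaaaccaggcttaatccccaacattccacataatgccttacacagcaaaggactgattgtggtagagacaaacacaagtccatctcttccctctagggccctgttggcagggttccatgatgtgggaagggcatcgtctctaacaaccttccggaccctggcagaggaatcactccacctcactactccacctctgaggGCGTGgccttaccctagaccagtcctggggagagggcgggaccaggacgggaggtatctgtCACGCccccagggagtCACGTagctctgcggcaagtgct
Hif1a: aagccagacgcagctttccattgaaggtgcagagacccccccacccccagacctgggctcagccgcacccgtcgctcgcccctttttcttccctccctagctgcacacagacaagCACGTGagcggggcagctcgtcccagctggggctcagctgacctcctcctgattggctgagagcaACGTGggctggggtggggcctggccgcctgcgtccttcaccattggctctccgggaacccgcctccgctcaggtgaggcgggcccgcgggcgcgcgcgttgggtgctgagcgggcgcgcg
Pdk1: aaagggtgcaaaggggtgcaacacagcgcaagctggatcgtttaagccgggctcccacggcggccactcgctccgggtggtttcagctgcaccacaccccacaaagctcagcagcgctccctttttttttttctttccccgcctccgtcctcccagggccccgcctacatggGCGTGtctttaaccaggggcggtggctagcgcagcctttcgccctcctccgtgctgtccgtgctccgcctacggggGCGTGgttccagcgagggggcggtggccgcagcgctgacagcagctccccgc
The core occurred 3 times in each of the Pgam1, Aldoc and Hif1a windows shown and 2 times in that of Pdk1, counting both strands, so that a CACGTG counts as 2. Aldoc and Pdk1 each have a second window, not shown, with 1 and 0 occurrences. It occurred 0 times in that of Tpi1, the gene with the smallest adjusted p of the set between the 2 Treg groups. Of the 32 genes, 31 (all but Slc2a3) were matched to 48 windows, and 38 windows (79.2%), of 28 genes, held ACGTG or GCGTG. Of all 32851 windows of the same length 43.8% held it. The E-box CACGTG, which contains ACGTG, was in 16.7% of the 48 windows and 7.15% of all. The median G and C content was 62.2% for the 48 windows and 52.7% for all. Among the 7473 windows whose G and C content lay between the quartiles of the 48 (56.6% to 66.2%), 61.5% held ACGTG or GCGTG and 10.1% held CACGTG. A match describes these letters and shows no binding.

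In Eos+ Tregs against Eos- Tregs, 14 of the 32 genes were higher and 1 was lower at an adjusted p of 0.05. These 15 called genes are 46.9% of the set, where 16.3% of all 15361 tested genes were called (9.82% higher and 6.45% lower). The median log2 fold change was 0.24 over the set and 0.00 over all tested genes. The genes that rose lie at each of the steps from hexokinase to pyruvate kinase (Hk1, Hk2, Gpi1, Pfkl, Aldoa, Aldoc, Tpi1, Gapdh, Pgk1, Pgam1, Eno2, Pkm), together with Hif1a and the pyruvate carrier subunit Mpc1. The single gene that fell was Pdk1. Summed over isoforms, phosphofructokinase and enolase overlapped between the Treg groups, at 1.14-fold and 1.06-fold. Eno1, the main enolase, was not called. A test against a 1.2-fold change called 10 of the 32 (9 higher and 1 lower), losing Hk1, Gpi1, Pfkl, Pkm and Mpc1. The 4 libraries of the groups did not overlap for 15 genes (13 higher and 2 lower), against 20.0% of all tested genes.

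Against Tconvs, Eos+ Tregs had 17 genes higher and 4 lower. That is 65.6% of the set, beside 30.3% of all tested genes (17.3% higher and 13.0% lower). The median log2 fold change was 0.37 over the set and -0.01 over all genes, and the groups did not overlap for 22 genes (16 higher and 6 lower), beside 33.1% of all. With replicate number as a block, 17 were higher and 8 lower. Eos- Tregs against Tconvs had 6 genes higher (Slc2a1, Eno2, Eno3, Slc16a3, Hif1a and Pdk2) and 6 lower (Pgk1, Pgam1, Eno1, Pkm, Slc16a1 and Pdk1). The count of lower genes was unstable, with 3 lower and 6 or 7 higher without Eos- replicate 3 or 4 or Tconv replicate 1, 2 or 4, and 10 lower and 6 higher with the block. The 12 called genes are 37.5% of the set, beside 14.6% of all genes (8.76% higher and 5.89% lower). The median was -0.02 over the set and -0.01 over all genes, and 12 genes did not overlap (7 higher and 5 lower), beside 20.1% of all. The 3 comparisons share their libraries in pairs and are given side by side, not as separate evidence. In bulk RNA, fewer cells that express a gene and less of its RNA per cell cannot be told apart.

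**Figure D1:**
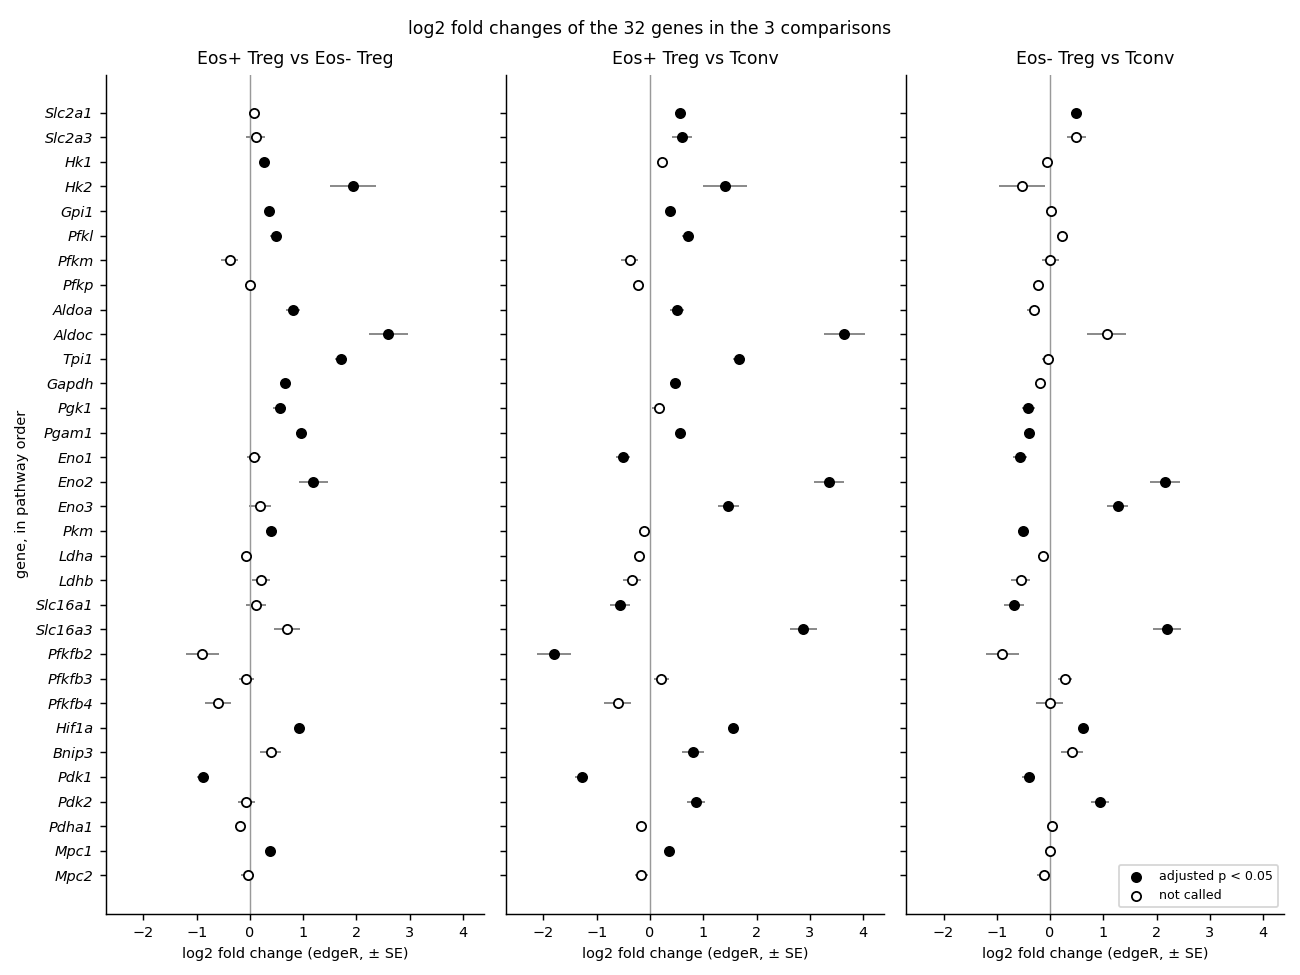
Log2 fold change of each of the 32 genes (points, with SE as whiskers, edgeR) in the 3 comparisons, with genes in pathway order on the vertical axis; filled points passed an adjusted p of 0.05. The 15 filled points of Eos+ against Eos- Tregs lie to the right of 0 apart from Pdk1, whereas the 12 filled points of Eos- Tregs against Tconvs lie 6 to either side.

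The genes fell into patterns over the 3 comparisons. Hk2, Gpi1, Pfkl, Aldoa, Aldoc, Tpi1, Gapdh and Mpc1 were higher in Eos+ Tregs than in either other population and not called between Eos- Tregs and Tconvs. Hif1a and Eno2 stepped down in order from Eos+ Tregs through Eos- Tregs to Tconvs, and Pdk1 stepped up in the same order, each in all 3 comparisons. Slc2a1, Eno3, Slc16a3 and Pdk2 were higher in both Treg populations than in Tconvs and not called between the Tregs, whereas Eno1 and Slc16a1 were lower in both. Pgk1, Pgam1 and Pkm were lower in Eos- Tregs than in either other population. Pfkm, Pfkp, Ldha, Ldhb, Pfkfb3, Pfkfb4, Pdha1 and Mpc2 passed the test in no comparison. These patterns are from the fit without replicate number as a block. The block lost no call and added some. Ldha, Ldhb, Pfkp and Pfkfb4 were then lower in Eos+ Tregs than in Tconvs. Aldoa, Gapdh, Ldhb and Pfkp were lower in Eos- Tregs than in Tconvs, and Slc16a3 was higher in Eos+ than in Eos- Tregs.

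Per kilobase of merged exons, the most abundant transcripts of the set were Ldha, Pkm, Eno1, Gapdh and Aldoa in every population. Merged exons join all annotated transcripts of a gene, so the order of these genes depends on the annotation. By CPM alone the same genes led, but Eno1 (1747 CPM) came before Pkm (1658 CPM) and Ldha (1226 CPM) in Eos+ Tregs. In Eos+ Tregs Ldha, Pkm, Eno1, Gapdh and Aldoa stood at 370, 332, 325, 246 and 225 CPM per kilobase. In Tconvs the first was Eno1, at 458 CPM per kilobase, before Ldha (429), Pkm (358), Gapdh (179) and Aldoa (159). Hk2 and Aldoc were among the least abundant, at 0.727 and 4.37 CPM per kilobase in Eos+ Tregs. Some of the largest fold changes, those of Hk2, Aldoc and Eno2, thus belong to minor isoforms, whereas Tpi1 and Pgam1 each hold their step alone in the set.

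Glucose enters T cells through the transporters encoded by Slc2a1 (GLUT1) and Slc2a3 (GLUT3). Slc2a1 stood at 56.7, 56.3, 68.2 and 60.7 CPM in Eos+ Tregs, at 57.9, 56.2, 61.3 and 53.7 CPM in Eos- Tregs and at 41.5, 37.9, 43.8 and 40.5 CPM in Tconvs (replicates 1 to 4, as in all such series below). All 8 Treg libraries lay above all 4 Tconv libraries, and the Treg groups overlapped. It was 1.48-fold higher in Eos+ Tregs (log2 0.56 ± 0.09 SE, adjusted p = 0.000442) and 1.40-fold higher in Eos- Tregs than in Tconvs (adjusted p = 0.0033). Slc2a3 was more variable, at 111, 163, 187 and 150 CPM in Eos+ Tregs, 99.1, 149, 169 and 148 CPM in Eos- Tregs and 102, 99.4, 80.0 and 122 CPM in Tconvs. Its replicate 1 was the lowest in each Treg group and overlapped Tconvs. It was 1.51-fold higher in Eos+ Tregs than in Tconvs (log2 0.60 ± 0.18, adjusted p = 0.0262), a call lost without Eos+ replicate 2 or 3 or without Tconv replicate 1, 2 or 3 (adjusted p at most 0.0832). In Eos- Tregs against Tconvs it was not called (log2 0.49 ± 0.18, adjusted p = 0.1), but it was called without the libraries numbered 1. The 95% interval of the log2 difference between the Treg groups was -0.10 to 0.26 for Slc2a1 and -0.25 to 0.47 for Slc2a3.

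Hexokinase traps glucose as glucose 6-phosphate. Hk1, the isoform found in most tissues, stood at 246, 303, 309 and 256 CPM in Eos+ Tregs, 236, 225, 242 and 219 CPM in Eos- Tregs and 247, 221, 238 and 246 CPM in Tconvs. It was 1.21-fold higher in Eos+ than in Eos- Tregs (log2 0.27 ± 0.08, adjusted p = 0.042), a call lost in 13 of 23 other settings (highest adjusted p 0.601). Among these were the fits without Eos+ replicate 2 or 3 and without any single Eos- or Tconv library, at adjusted p up to 0.122. The test against a 1.2-fold change was another. Against Tconvs the log2 change was 0.23 ± 0.08 and was not called (adjusted p = 0.0575), but it was called without the libraries numbered 1. Hk2, the isoform induced on T cell activation, was scarce, at 4.67, 3.56, 4.93 and 4.19 CPM in Eos+ Tregs, 1.58, 0.456, 0.968 and 1.52 CPM in Eos- Tregs and 1.99, 1.03, 2.45 and 1.03 CPM in Tconvs. Every Eos+ library lay above every other library. The gene was 3.84-fold higher than in Eos- Tregs (log2 1.94 ± 0.43, adjusted p = 0.00836) and 2.66-fold higher than in Tconvs (adjusted p = 0.0229). Without the libraries numbered 1, or without Eos+ replicate 3, Tconv replicate 2 or Tconv replicate 4, the second call was lost (adjusted p 0.0562 to 0.0681). Hk2 made up 1.55%, 0.488% and 0.675% of hexokinase reads in Eos+ Tregs, Eos- Tregs and Tconvs.

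Gpi1, the isomerase that forms fructose 6-phosphate, ran from 306 to 333 CPM in Eos+ Tregs, 234 to 266 CPM in Eos- Tregs and 239 to 257 CPM in Tconvs. Eos+ Tregs were 1.29-fold higher than Eos- Tregs (adjusted p = 0.00176) and 1.3-fold higher than Tconvs (adjusted p = 0.000502), with no overlap of libraries.

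Phosphofructokinase, the committed step of glycolysis, is a tetramer of liver (Pfkl), muscle (Pfkm) and platelet (Pfkp) subunits. Pfkl stood at 207, 263, 235 and 194 CPM in Eos+ Tregs, 177, 147, 172 and 148 CPM in Eos- Tregs and 144, 128, 138 and 140 CPM in Tconvs. The 3 groups did not overlap, in that order. Pfkl was 1.40-fold higher in Eos+ than in Eos- Tregs (log2 0.48 ± 0.10, adjusted p = 0.00587) and 1.64-fold higher than in Tconvs (log2 0.71 ± 0.10, adjusted p = 0.00016). Pfkp, at 194 to 241, 212 to 241 and 222 to 297 CPM in Eos+ Tregs, Eos- Tregs and Tconvs, was not called in any comparison. With replicate number as a block it was lower in both Treg groups than in Tconvs (log2 -0.21 in each, adjusted p = 0.0267 and 0.0448). Pfkp shares 5.6% of its exon bases with Pitrm1 on the other strand, which reached 121 CPM, and reads there cannot be assigned without strand. Pfkm ran from 19.7 to 36.4 CPM over all libraries and was not called. The subunits summed to 471 ± 47.9 CPM in Eos+ Tregs, 414 ± 32.4 CPM in Eos- Tregs and 426 ± 35.3 CPM in Tconvs (SD, n = 4), with overlapping libraries. Pfkl took 47.6 ± 2.41%, 38.9 ± 0.97% and 32.3 ± 2.49% of the sum in the same order, with no overlap.

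Fructose 2,6-bisphosphate, made and removed by the PFKFB enzymes, activates phosphofructokinase. Pfkfb2 stood at 2.76, 4.05, 3.70 and 1.53 CPM in Eos+ Tregs, 6.56, 3.22, 5.15 and 7.5 CPM in Eos- Tregs and 10.5, 10.6, 10.2 and 10.8 CPM in Tconvs. All Treg libraries lay below the narrow range of Tconvs. Pfkfb2 was 3.48-fold lower in Eos+ Tregs than in Tconvs (log2 -1.80 ± 0.32, adjusted p = 0.000874) and had log2 changes of -0.90 ± 0.31 in each of the other comparisons (adjusted p = 0.0727 and 0.0718). Pfkfb3, the inducible form, ran from 20.3 to 35.4 CPM and was not called. Pfkfb4 was 7.49 ± 2.02 CPM in Eos+ Tregs, 11.3 ± 3.05 CPM in Eos- Tregs and 11.4 ± 2.18 CPM in Tconvs, and was called lower in Eos+ Tregs than in Tconvs only with the replicate block (log2 -0.62, adjusted p = 0.0292, against 0.0826 without it).

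Aldolase cleaves the sugar into triose phosphates. Aldoa, the main form, stood at 719, 740, 606 and 561 CPM in Eos+ Tregs, 471, 370, 307 and 349 CPM in Eos- Tregs and 490, 477, 433 and 450 CPM in Tconvs. Eos+ libraries lay above all others. Aldoa was 1.75-fold higher than in Eos- Tregs (log2 0.81 ± 0.13, adjusted p = 0.000932) and 1.42-fold higher than in Tconvs (adjusted p = 0.00859). Between Eos- Tregs and Tconvs the log2 change was -0.31 ± 0.13 (adjusted p = 0.132), which the block brought to 0.0185. It was also called there without the libraries numbered 1. Aldoc, the form known from brain, stood at 9.69, 19.0, 15.8 and 12.5 CPM in Eos+ Tregs, 3.24, 2.62, 0.933 and 2.61 CPM in Eos- Tregs and 1.24, 1.38, 1.09 and 0.815 CPM in Tconvs. It showed the largest fold change of the set in both Eos+ comparisons, 6.06-fold over Eos- Tregs (log2 2.60 ± 0.36, adjusted p = 0.000423) and 12.6-fold over Tconvs (log2 3.65 ± 0.38, adjusted p = 1.31e-05). Even so, it took only 2.14 ± 0.563% of aldolase reads in Eos+ Tregs, beside 0.608% in Eos- Tregs and 0.243% in Tconvs.

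Tpi1 (ENSMUSG00000023456.15), encoding triosephosphate isomerase, which interconverts the triose phosphates and has no other gene here to share the step, lies on chromosome 6 at 124810586 to 124814296 (mm10). It stood at 224, 289, 236 and 217 CPM in Eos+ Tregs, 85.4, 79.4, 63.9 and 67.0 CPM in Eos- Tregs and 78.7, 72.6, 75.2 and 77.2 CPM in Tconvs. The lowest Eos+ library was far above the highest of the other 8, which overlapped one another. Tpi1 was 3.27-fold higher than in Eos- Tregs (log2 1.71 ± 0.11, adjusted p = 4.19e-06) and 3.18-fold higher than in Tconvs (log2 1.67 ± 0.11, adjusted p = 3.3e-07). Eos- Tregs and Tconvs differed by a log2 of -0.04, with a 95% interval of -0.25 to 0.17. Leaving out any single library kept the change against Eos- Tregs between 1.61 and 1.77 on the log2 scale.

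**Figure D2:**
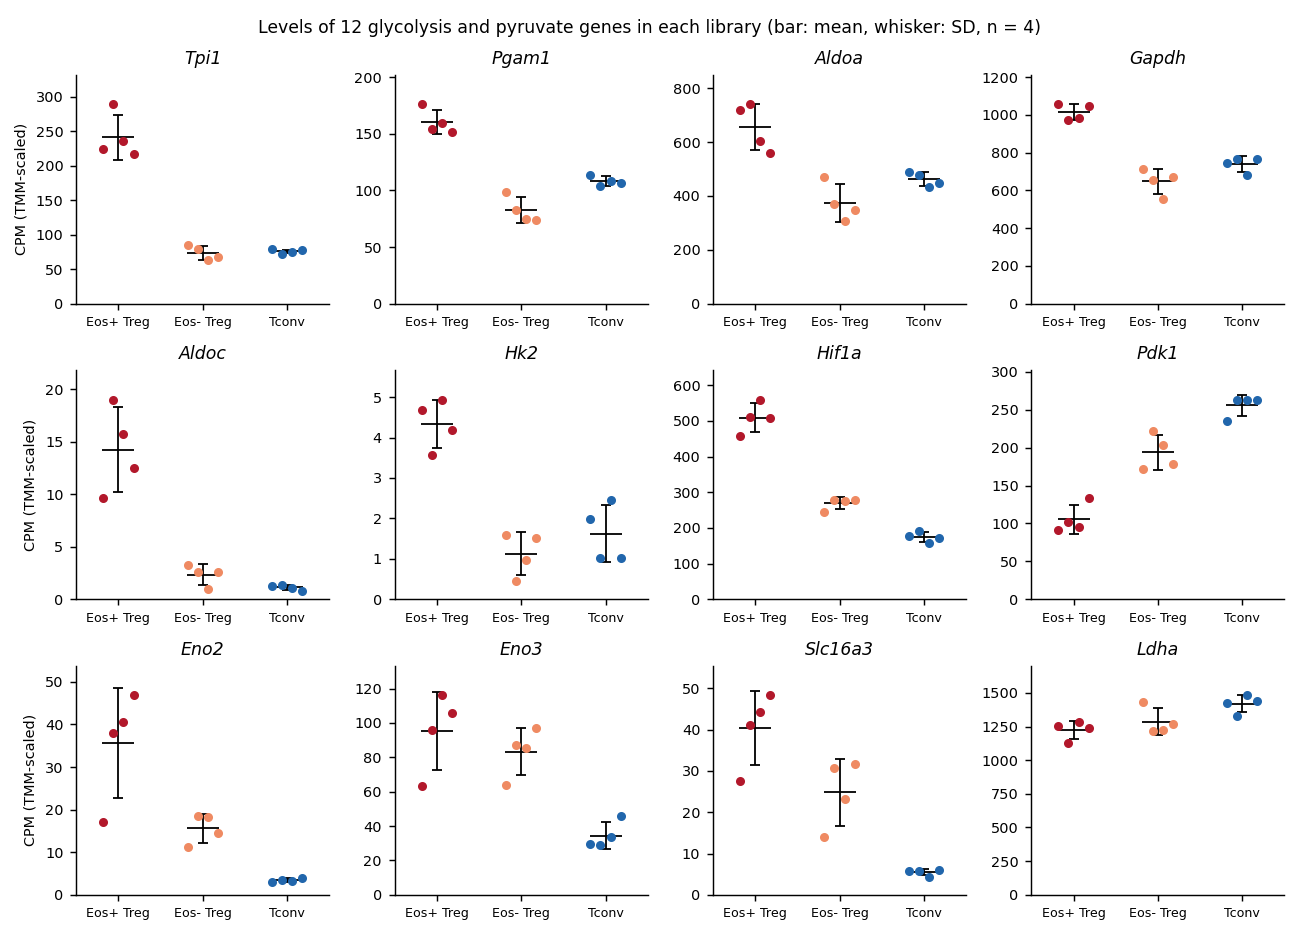
Levels in CPM on TMM-scaled totals of 12 genes in each library (points) of Eos+ Tregs, Eos- Tregs and Tconvs, with the mean as a bar and the SD as a whisker (n = 4). Tpi1 stands at 217 to 289 CPM in Eos+ Tregs and at 63.9 to 85.4 CPM in the other libraries, Pdk1 runs the opposite way, and Ldha overlaps between the Treg groups.

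The later part of the pathway begins with Gapdh (glyceraldehyde 3-phosphate dehydrogenase), often used as a reference gene. It stood at 1056, 976, 984 and 1045 CPM in Eos+ Tregs, 712, 655, 553 and 671 CPM in Eos- Tregs and 745, 766, 680 and 769 CPM in Tconvs. Eos+ Tregs were 1.57-fold higher than Eos- Tregs (log2 0.65 ± 0.08, adjusted p = 0.00027) and 1.37-fold higher than Tconvs (adjusted p = 0.00115), with no overlap. With the block, Eos- Tregs were also lower than Tconvs (log2 -0.20, adjusted p = 0.039, against 0.156 without it). Pgk1, the first ATP-forming enzyme, was 168 ± 10.3 CPM in Eos+ Tregs, 114 ± 19.8 CPM in Eos- Tregs and 150 ± 16.3 CPM in Tconvs. It was 1.48-fold higher in Eos+ than in Eos- Tregs (adjusted p = 0.00565). It was 1.33-fold lower in Eos- Tregs than in Tconvs (adjusted p = 0.0345), a call lost in 8 of 23 other settings (highest adjusted p 0.239). Of these, 6 left out 1 library (Eos- replicate 2, 3 or 4, or Tconv replicate 1, 2 or 4), at adjusted p up to 0.0956. The test against a 1.2-fold change also lost it.

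Pgam1 encodes phosphoglycerate mutase. It stood at 176, 154, 160 and 152 CPM in Eos+ Tregs, 99, 83.1, 75 and 73.5 CPM in Eos- Tregs and 114, 104, 108 and 107 CPM in Tconvs. The 3 groups did not overlap, with Tconvs between the Treg populations. Pgam1 was 1.94-fold higher in Eos+ than in Eos- Tregs (log2 0.96 ± 0.10, adjusted p = 4.03e-05) and 1.48-fold higher than in Tconvs (adjusted p = 0.000561), while Eos- Tregs were 1.31-fold lower than Tconvs (log2 -0.39 ± 0.09, adjusted p = 0.0146). Without the replicate block, Pgam1 was the only gene of the 32 called in opposite directions against Tconvs in the Treg populations. Its difference between them is the first of these tests. With the block, Aldoa and Gapdh were also called in opposite directions. A processed copy, Pgam1-ps2, held at most 4.35% of its counts. Adding back the copies that carry a gene's name with the suffix -ps, and Eno1b, changed no call among the 32. Copies under other names were not looked for.

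Enolase moved differently by isoform. Eno1, by far the main form, stood at 1817, 1938, 1710 and 1525 CPM in Eos+ Tregs, 2158, 1713, 1430 and 1360 CPM in Eos- Tregs and 2380, 2586, 2497 and 2399 CPM in Tconvs. Every Treg library lay below every Tconv library. Eno1 was 1.41-fold lower in Eos+ Tregs (adjusted p = 0.0125) and 1.48-fold lower in Eos- Tregs (adjusted p = 0.0122) than in Tconvs, and the 95% interval between the Tregs was -0.19 to 0.33. Eno2, the form known from neurons, stood at 17.2, 38.1, 40.6 and 46.8 CPM in Eos+ Tregs, 11.1, 18.5, 18.2 and 14.6 CPM in Eos- Tregs and 3.04, 3.55, 3.33 and 4.00 CPM in Tconvs. Replicate 1 was the lowest of each Treg group, and only there did Eos+ reach into the Eos- range. Eno2 was 2.29-fold higher in Eos+ than in Eos- Tregs (log2 1.19 ± 0.27, adjusted p = 0.00811), and 10.2-fold (log2 3.36 ± 0.29, adjusted p = 2.71e-06) and 4.48-fold higher than Tconvs (adjusted p = 0.00023).

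Eno3, the muscle form, stood at 63.3, 95.8, 116 and 106 CPM in Eos+ Tregs, 64.0, 87.2, 85.3 and 97.0 CPM in Eos- Tregs and 29.7, 28.8, 33.5 and 45.8 CPM in Tconvs. The Treg groups overlapped and both lay above Tconvs. The fold changes against Tconvs were 2.76 (log2 1.47 ± 0.20, adjusted p = 0.000122) and 2.42 (log2 1.27 ± 0.20, adjusted p = 0.000977). Enolase reads summed over the 3 genes to 1878 ± 161 CPM in Eos+ Tregs, 1764 ± 347 CPM in Eos- Tregs and 2504 ± 91.9 CPM in Tconvs, with all Treg libraries below all Tconv libraries.

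Pkm, which encodes the pyruvate kinases of T cells, was 1658 ± 173 CPM in Eos+ Tregs, 1255 ± 148 CPM in Eos- Tregs and 1788 ± 109 CPM in Tconvs. It was 1.32-fold higher in Eos+ than in Eos- Tregs (log2 0.40 ± 0.10, adjusted p = 0.0169) and 1.42-fold lower in Eos- Tregs than in Tconvs (adjusted p = 0.00483). The first call was lost without Eos+ replicate 2, Eos- replicate 3 or Eos- replicate 4, at adjusted p up to 0.0577. The gene counts do not split the M1 and M2 splice forms. Of its exon bases 15.3% overlap the annotated gene Gm49759 on the same strand, which reached 29.2 CPM.

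Lactate dehydrogenase was not called between the Treg populations. Ldha stood at 1251, 1131, 1283 and 1238 CPM in Eos+ Tregs, 1431, 1218, 1223 and 1266 CPM in Eos- Tregs and 1428, 1330, 1481 and 1438 CPM in Tconvs. The Treg groups overlapped, with a log2 difference of -0.07 and a 95% interval of -0.22 to 0.08. All Eos+ libraries lay below all Tconv libraries, at a log2 change of -0.21 ± 0.08 that was not called (adjusted p = 0.0564) and was called with the block (adjusted p = 0.0131). Ldhb was 151 ± 18.9, 130 ± 36.4 and 190 ± 27.0 CPM in Eos+ Tregs, Eos- Tregs and Tconvs and was not called. With the block it was lower than in Tconvs in Eos+ Tregs (log2 -0.33, adjusted p = 0.0332, against 0.181) and Eos- Tregs (log2 -0.57, adjusted p = 0.00402, against 0.0546), and the second was also called without the libraries numbered 1. Ldha took 89.0%, 90.9% and 88.2% of the pair's reads in the same order.

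Lactate crosses the membrane through MCT1 (Slc16a1) and MCT4 (Slc16a3), the latter typical of cells that export much lactate. Slc16a1 stood at 53.2, 31.0, 36.6 and 33.0 CPM in Eos+ Tregs, 46.9, 32.4, 29.9 and 32.7 CPM in Eos- Tregs and 59.1, 62.3, 43.8 and 61.7 CPM in Tconvs. Replicate 1 was the highest of each Treg group and overlapped Tconvs. Slc16a1 was 1.48-fold lower in Eos+ Tregs (adjusted p = 0.0441) and 1.60-fold lower in Eos- Tregs (adjusted p = 0.0339) than in Tconvs. Each call was lost without replicate 2, 3 or 4 of the Treg group concerned and without Tconv replicate 1, 2 or 4 (adjusted p up to 0.124 and 0.0922).

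Slc16a3 stood at 27.6, 41.1, 44.3 and 48.3 CPM in Eos+ Tregs, 14.1, 30.7, 23.1 and 31.6 CPM in Eos- Tregs and 5.75, 5.78, 4.29 and 5.99 CPM in Tconvs. All Treg libraries lay above all Tconv libraries. The fold changes were 7.39 in Eos+ Tregs (log2 2.88 ± 0.26, adjusted p = 4.05e-06) and 4.56 in Eos- Tregs (log2 2.19 ± 0.26, adjusted p = 0.000113). Between the Tregs the log2 change was 0.70 ± 0.24 and was not called (adjusted p = 0.0704). It was called with the block (adjusted p = 0.0199) and without the libraries numbered 1. The transporters' reads summed to 78.7 ± 4.43, 60.3 ± 5.08 and 62.2 ± 9.53 CPM in Eos+ Tregs, Eos- Tregs and Tconvs, and Slc16a3 took 51.3%, 41.1% and 8.79% of them.

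**Figure D3:**
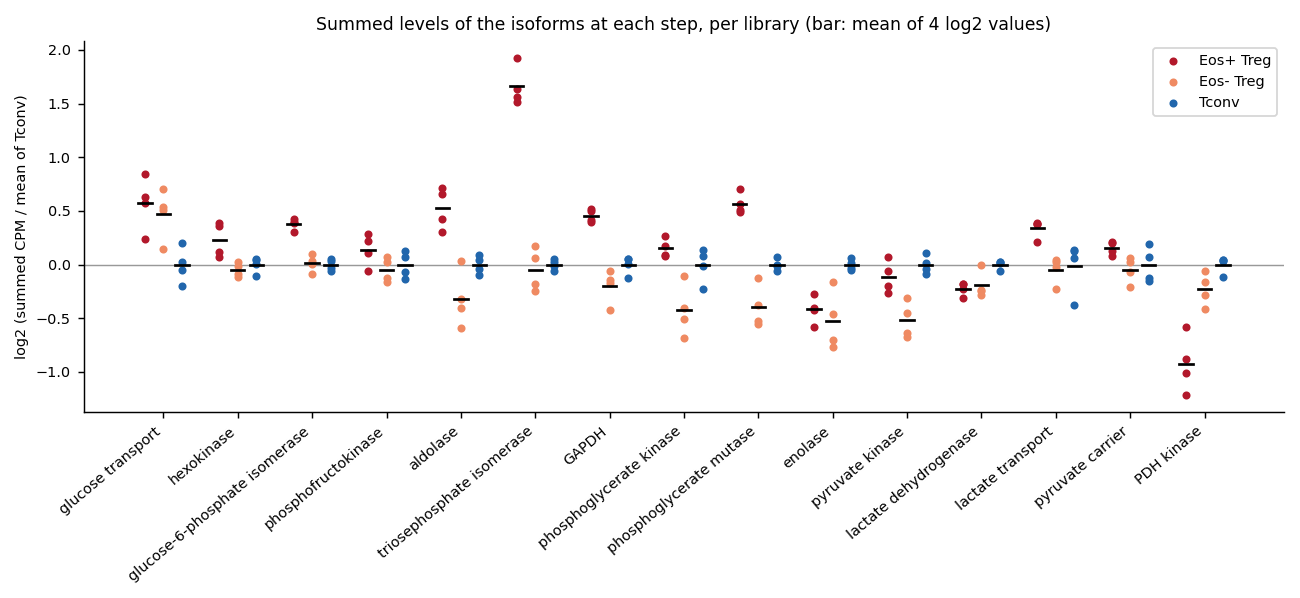
Summed CPM of the isoforms at each step, as log2 relative to the mean of Tconvs, for each library (points) of the 3 populations, with the mean of the log2 values as a bar. Triosephosphate isomerase stands 3.18-fold over Tconvs in Eos+ Tregs, whereas enolase in both Treg populations and pyruvate kinase in Eos- Tregs lie below 0. The PDH kinase step holds Pdk1 and Pdk2 and leaves out Pdk3.

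Pyruvate enters the mitochondrion through a carrier of Mpc1 and Mpc2. Mpc1 was 80.3 ± 4.52 CPM in Eos+ Tregs, 62.3 ± 5.71 CPM in Eos- Tregs and 62.4 ± 5.78 CPM in Tconvs. It was 1.29-fold higher in Eos+ Tregs than in either (adjusted p = 0.0179 and 0.0102), and without the libraries numbered 1 both calls were lost (adjusted p 0.0547 to 0.25 over the settings that lost the first, and 0.0613 to 0.172 for the second). The first was also lost without Eos- replicate 3 (adjusted p 0.0641), and both with the test against a 1.2-fold change. Mpc2 ran from 41.0 to 56.9 CPM and was not called. Pdha1, the catalytic subunit gene of pyruvate dehydrogenase, was 194 ± 6.56 CPM in Eos+ Tregs, 221 ± 8.33 CPM in Eos- Tregs and 217 ± 14.6 CPM in Tconvs. Its Eos+ libraries lay below all others at log2 changes of -0.19 and -0.16 that were not called (adjusted p = 0.0658 and 0.0798). Pdha1 was called by DESeq2 in both.

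The pyruvate dehydrogenase kinases Pdk1 and Pdk2, which switch the complex off, ran in opposite directions against Tconvs. Pdk1 (chromosome 2, 71873224 to 71903858, mm10) stood at 91.1, 102, 94.7 and 134 CPM in Eos+ Tregs, 172, 222, 203 and 178 CPM in Eos- Tregs and 235, 263, 263 and 263 CPM in Tconvs. The groups did not overlap. Pdk1 was 1.84-fold lower in Eos+ than in Eos- Tregs (log2 -0.88 ± 0.12, adjusted p = 0.000419) and 2.43-fold lower than in Tconvs (log2 -1.28 ± 0.12, adjusted p = 6.29e-06). Its fall from Tconvs to Eos- Tregs, 1.32-fold, was marginal (adjusted p = 0.0407) and was lost in 10 of 23 other settings, 8 of them with 1 library left out (Eos+ replicate 2, Eos- replicate 1, 3 or 4, or any Tconv library; adjusted p up to 0.124) and 1 without the libraries numbered 1. Pdk2 stood at 29.7, 50.1, 44.3 and 53.0 CPM in Eos+ Tregs, 37.5, 46.7, 48.6 and 53.4 CPM in Eos- Tregs and 24.6, 24.7, 23.7 and 24.2 CPM in Tconvs. Both Treg groups lay above Tconvs, by 1.82-fold (log2 0.86 ± 0.17, adjusted p = 0.00154) and 1.91-fold (log2 0.94 ± 0.17, adjusted p = 0.0022), and overlapped each other. Reads of the pair summed to 150 ± 28.0, 240 ± 25.5 and 280 ± 14.0 CPM in Eos+ Tregs, Eos- Tregs and Tconvs, and Pdk2 took 29.4%, 19.4% and 8.69% of them.

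Hif1a (chromosome 12, 73901375 to 73947530, mm10) stood at 459, 512, 559 and 509 CPM in Eos+ Tregs, 244, 277, 276 and 279 CPM in Eos- Tregs and 178, 191, 158 and 172 CPM in Tconvs. No library of a group overlapped another group. Hif1a was 1.89-fold higher in Eos+ than in Eos- Tregs (log2 0.92 ± 0.08, adjusted p = 1.88e-05), 2.92-fold higher than in Tconvs (log2 1.55 ± 0.08, adjusted p = 7e-08) and 1.54-fold higher in Eos- Tregs than in Tconvs (log2 0.62 ± 0.08, adjusted p = 0.000279). Bnip3, a mitophagy receptor and known target of HIF-1, stood at 16.6, 26.2, 21.5 and 18.2 CPM in Eos+ Tregs, 11.7, 20.2, 13.4 and 17.5 CPM in Eos- Tregs and 11.4, 12.4, 9.73 and 13.5 CPM in Tconvs. It was 1.75-fold higher in Eos+ Tregs than in Tconvs (log2 0.81 ± 0.20, adjusted p = 0.00837), with values between in Eos- Tregs that were called against neither. Of known targets of HIF-1 in the set, Aldoa, Tpi1, Pgk1, Pgam1 and Hk2 were higher in Eos+ than in Eos- Tregs and Pdk1 was lower. Bnip3, Ldha, Slc2a1, Slc2a3, Eno1, Slc16a3, Pfkfb3 and Pfkfb4 were not called between the Treg populations. These are examples and not a full list of its targets. Among genes of the set not named as examples, Hk1, Gpi1, Pfkl, Aldoc, Gapdh, Eno2, Pkm and Mpc1 were also higher. No gene of the set other than Pdk1 was called lower between the Treg populations.

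The ratio of isoforms within a library does not depend on how libraries are scaled. For 12 ratios and 3 comparisons, an exact two-sided permutation test over libraries has 0.029 as its smallest p. Of the 36 tests 21 reached it, with an adjusted p of 0.049 over the 36. All 21 share this p, so their adjusted p rests on how many reached it, and they pass together. Several ratios contain genes called above and are not separate evidence. The share for other gene pairs was not computed. Of the 12 ratios, 6 parted Eos+ from Eos- Tregs, 9 parted Eos+ Tregs from Tconvs and 6 parted Eos- Tregs from Tconvs without overlap. Log2 Pfkp/Pfkl was 0.01 ± 0.13, 0.48 ± 0.06 and 0.92 ± 0.17 in Eos+ Tregs, Eos- Tregs and Tconvs (SD, n = 4) and parted all 3 groups. Log2 Pdk1/Pdk2 was 1.27 ± 0.27, 2.06 ± 0.23 and 3.39 ± 0.10 in the same order and also parted all 3. Log2 Slc16a3/Slc16a1 was 0.07 ± 0.69, -0.56 ± 0.80 and -3.37 ± 0.04, which parted both Tregs from Tconvs. The Treg groups overlapped, although their difference had the same sign in all 4 pairs of equal number. Log2 Mpc1/Mpc2 was 0.86 ± 0.13 in Eos+ Tregs and 0.45 ± 0.10 and 0.35 ± 0.20 in the others, and parted Eos+ Tregs from each. Log2 Slc2a1/Slc2a3 (-1.32 ± 0.25, -1.28 ± 0.34 and -1.29 ± 0.30) and Ldha/Ldhb (3.03 ± 0.24, 3.34 ± 0.33 and 2.91 ± 0.27) overlapped in every comparison, although the Ldha/Ldhb difference of Eos- Tregs from each other group had the same sign in all 4 pairs. With a library left out, or paired by number, this test cannot reach 0.05, since fewer arrangements are then possible (smallest p 0.057 with a library left out).

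**Figure D4:**
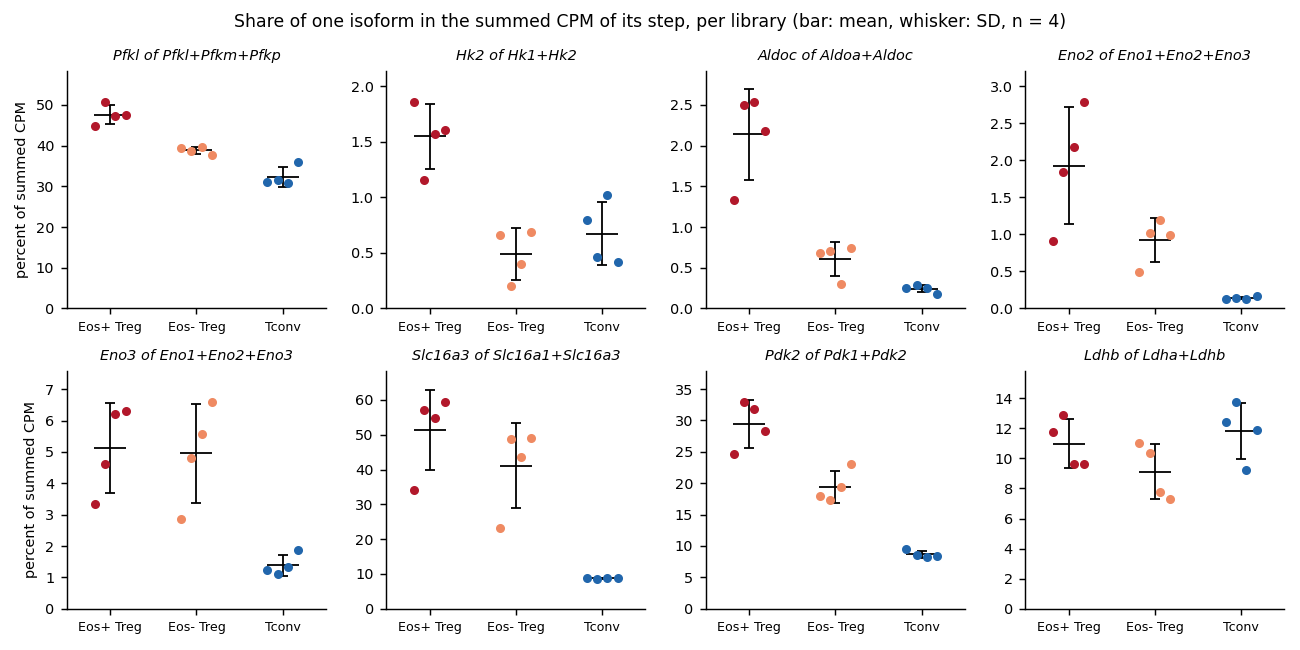
Percent of the summed CPM of a step taken by the isoform named above each panel, per library (points) with the mean as a bar and the SD as a whisker (n = 4). The shares of Pfkl and Pdk2 fall in steps from Eos+ Tregs to Tconvs, that of Slc16a3 is near 8.79% in Tconvs and 23.1% to 59.4% in Tregs, and that of Ldhb overlaps throughout. The share of Pdk2 is of Pdk1 and Pdk2 only, without Pdk3.

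Beyond the 32, genes of 11 related lists were counted, 142 of 164 of them tested. In Eos+ against Eos- Tregs 24 were higher and 8 lower, in Eos+ Tregs against Tconvs 31 and 23, and in Eos- Tregs against Tconvs 14 and 13. These are 22.5%, 38% and 19.0% of the 142, beside the 16.3%, 30.3% and 14.6% of all tested genes. Among the other transporters of sugars and monocarboxylates, 4 of 10 tested were higher in Eos+ than in Eos- Tregs and 0 were lower. Slc2a6, a glucose transporter of intracellular membranes, stood at 10.2, 8.73, 5.98 and 9.03 CPM in Eos+ Tregs and at most 0.912 CPM in Eos- Tregs (13.3-fold, log2 3.74 ± 0.90, adjusted p = 0.0127). Slc2a8 (GLUT8) was 21.4 ± 2.83 and 8.20 ± 0.656 CPM (2.61-fold, adjusted p = 0.000761), and Emb, which encodes embigin, a partner protein of monocarboxylate transporters, 380 ± 93.9 and 202 ± 33.5 CPM (1.88-fold, adjusted p = 0.00229). Emb in Tconvs, 391 ± 32 CPM, was near the Eos+ level.

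Of the further enzymes of the pathway, 2 of 11 tested were higher in Eos+ than in Eos- Tregs and 1 was lower (27.3% called, beside 16.3% of all genes). Galm, which interconverts the anomers of free sugars, was 116 ± 13.5 CPM in Eos+ Tregs, 38.4 ± 4.30 CPM in Eos- Tregs and between 17.7 and 24.3 CPM in Tconvs, 3.04-fold (adjusted p = 9.81e-06) and 5.82-fold higher in Eos+ Tregs. Pgm1, which links glycogen to glucose 6-phosphate, was 1.55-fold higher (adjusted p = 0.00144), and Minpp1, an inositol phosphate phosphatase that also acts on bisphosphoglycerate, 1.39-fold lower (adjusted p = 0.00225). Of 13 tested genes around pyruvate dehydrogenase, 1 was higher and 2 were lower (23.1% called). The kinase Pdk3 was higher (1.52-fold, adjusted p = 0.0208). The malic enzyme Me2 (1.54-fold, adjusted p = 0.000834) and the dehydrogenase subunit Pdhb (1.19-fold, adjusted p = 0.0449) were lower. The citrate cycle, which takes up the product of pyruvate dehydrogenase, had 2 of 20 genes higher and 0 lower, namely Suclg2 (1.56-fold, adjusted p = 0.0107) and Mdh1 (1.29-fold, adjusted p = 0.0186). Its 10.0% called lies below the 16.3% of all genes.

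Of 11 genes of the HIF pathway, 1 was higher and 1 lower between the Tregs (18.2%, beside 16.3% of all genes). Egln3, an oxygen-sensing prolyl hydroxylase that is itself a HIF target, was 14.4 ± 1.28 CPM in Eos+ Tregs, 4.21 ± 1.53 CPM in Eos- Tregs and 6.03 ± 2.40 CPM in Tconvs (3.41-fold over Eos- Tregs, adjusted p = 0.00155). Siah1a, a ubiquitin ligase, was 1.62-fold lower (adjusted p = 0.000243). Of 19 HIF targets outside glycolysis, 5 were higher and 0 lower, among them Rora (207 ± 18.1 against 50.8 ± 8.88 CPM, adjusted p = 9.81e-06) and Anxa2 (191 ± 46.7 against 73.3 ± 19.5 CPM, adjusted p = 0.000562). That is 26.3% of the list, whose median log2 change was 0.04. Rora encodes a nuclear receptor and Anxa2 a membrane-binding annexin.

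Of markers of other cells, the 10 B cell markers summed to 49.6 to 170 CPM in Eos+ Tregs, 6.22 to 32 CPM in Eos- Tregs and 12.6 to 63.4 CPM in Tconvs. The 12 dendritic cell and macrophage markers summed to 113 to 221, 62.8 to 173 and 79.0 to 116 CPM. No marker of either list was at 0 in all libraries. Both sums had their highest mean in Eos+ Tregs, but only the B cell sums of the 2 Treg groups did not overlap. The 8 T cell markers summed to 5684 to 6189 CPM in Eos+ Tregs, 6865 to 7412 CPM in Eos- Tregs and 8009 to 8350 CPM in Tconvs. Of these 8 markers, 4 were lower in Eos+ than in Eos- Tregs and 7 were lower than in Tconvs, with 0 higher in either. What part such differences have in the results for the 32 genes was not tested. Double-positive thymocyte markers (197 to 530, 170 to 549 and 211 to 463 CPM) overlapped between all groups, as did those of CD8 and cytotoxic cells between the Treg groups (169 to 305 and 79.3 to 282 CPM). The sum of 12 epithelial and stromal markers was lowest in Eos+ Tregs (136 to 191 CPM, against 233 to 338 and 197 to 224 CPM). Single markers went both ways. Of the 6 tested, 2 were higher and 1 lower in Eos+ than in Eos- Tregs. Against Tconvs, 1 was higher and 2 were lower in Eos+ Tregs.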

How the data were processed

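The authors deposited expected counts, which RSEM estimates from aligned reads for each gene, with no scaling for depth or gene length. The submitters' processing notes name the tools cutadapt, STAR (2.7.0f), RSEM (1.3.1) and the genome build mm10. The annotation and settings are not given in the sources used here. Per the labels' protocols, cDNA came from a template-switching kit that does not mark strand. All 55450 gene IDs matched GENCODE M21, from which positions and overlaps were taken. Between 9.54% and 10.74% of values per library were not whole, since reads that match several genes are shared out, so genes with near-identical copies are less certain.

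After rounding, the counts entered edgeR's quasi-likelihood F test (edgeR 4.0.16, R 4.3.3) with TMM factors, the filterByExpr filter and 1 mean per group over all 12 libraries. Two-sided p-values were adjusted over the 15361 genes that passed (Benjamini-Hochberg), and a gene was called at 0.05. CPM were computed on TMM-scaled totals. Errors of levels are SD and errors of log2 changes are SE. Ratios were log2 of counts with 0.5 added, compared by an exact permutation test in scipy 1.17.1. The steps were checked on simulated data.

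Same-numbered libraries share a tag in the labels' library names and deviated together in all 12 pairings (correlation 0.14 to 0.32). The numbers may thus pair the samples. The main calls, counts and ratio tests do not use this pairing. The fit with replicate number as a block is given where it changes a call. The other alternatives were DESeq2 1.42.0, limma-voom (limma 3.58.1), other scaling and filters, each library left out, the libraries numbered 1 left out, copies added and a test against a 1.2-fold change.

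The 32 genes and the related lists were chosen with earlier results of these data known. Values in every library are given for genes called with a fold over 1.5 and for Hif1a, Gapdh, Ldha, Hk1, Hk2 and Slc2a1. From each related list the rule named up to 3 called genes with the largest change and at least 5 CPM in a group.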

Additional observations from a re-analysis of the deposited data

Results flagged for a closer look

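Among the 96 groups of 4 levels and 36 groups of 4 ratios checked, 9 held a library far from the other 3, by the gap over the range of the group. Chance flags about 1 in 20 groups. Eos- Treg replicate 1 was set apart for Slc16a1 (46.9 CPM, the others 29.9 to 32.7), for Hif1a (244 CPM, the others 276 to 279) and for the log2 ratio of Slc2a1 to Slc2a3 (-0.78, the others -1.47 to -1.41). Eos- Treg replicate 2 was low in Pfkm (21.5 CPM, the others 29.8). Eos- Treg replicate 3 was low in the log2 ratio of Aldoc to Aldoa (-8.34, the others -7.17 to -7.05). Among Tconvs, replicate 1 was low in Pdk1 (235 CPM, the others 263), replicate 3 was low in Slc16a3 (4.29 CPM, the others 5.75 to 5.99), and replicate 4 was high in Pdha1 (238 CPM, the others 208 to 212) and low in the log2 ratio of Pfkp to Pfkl (0.67, the others 0.99 to 1.05).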

How the results depend on the processing

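No called gene of the 32 changed sign under any of the 23 other settings. Counts of called genes, both directions together, were within 1.5 times those reported except with the test against a 1.2-fold change. That test called 1482 of all genes in Eos+ against Eos- Tregs, 1239 of all genes in Eos- Tregs against Tconvs, and 7 of the 32 (6 higher and 1 lower) in Eos- Tregs against Tconvs, and by its construction it drops small changes. With replicate number as a block, 3498, 5571 and 3300 of all genes and 16, 25 and 16 of the 32 were called in the 3 comparisons, with no call of the 32 lost. By direction the counts were less stable. The block gave 1564 lower genes of all in Eos- Tregs against Tconvs, where 904 were called without it, and leaving out Eos- replicate 4, Tconv replicate 1 or Tconv replicate 2 gave 549, 599 and 585. The 1 lower gene of the 32 in Eos+ against Eos- Tregs became 2 or 3 with upper-quartile factors, the stricter filter, DESeq2, or without Eos- replicate 2 or Tconv replicate 4. Over the fits with 1 library left out, 12 to 16, 18 to 22 and 9 to 14 of the 32 were called. For the ratios 0 of 36 reached the threshold when paired by replicate number and 0 to 0 with 1 library left out, since fewer arrangements cannot reach it. For the 48 called gene differences and 21 ratios past the threshold, 1075 alternative values kept their direction and side of the threshold and 344 kept the direction only. The 344 include all 21 ratios in each setting with 1 library left out and paired by number, which cannot reach the threshold. Among ratios not past it, Slc2a1/Slc2a3 in all 3 comparisons and Eno3/Eno1 between the Tregs changed sign with a library left out (between the Tregs log2 -0.16 to 0.13 and -0.17 to 0.29). The depth, 23.9 to 37.9 M counts a library, limits what can be told of genes near 1 CPM, as Hk2 was in some libraries.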

Other observations

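Side branches of glycolysis had 12.5% to 25% of their tested genes called between the Treg populations in 4 lists, beside 16.3% of all genes. In the branch from 3-phosphoglycerate to serine and the folate cycle, 2 of 8 genes were higher in Eos+ than in Eos- Tregs, both mitochondrial folate enzymes. Mthfd1l was 59.1 ± 7.57 CPM against 38.9 ± 5.41 CPM (SD, n = 4, 1.52-fold, adjusted p = 0.00712 by edgeR) and Mthfd2 48.4 ± 4.75 against 34.2 ± 3.50 CPM (1.42-fold, adjusted p = 0.0181). Of 11 tested glycogen genes 2 were higher, the branching enzyme Gbe1 (42.6 ± 5.61 against 27.6 ± 3.86 CPM, 1.55-fold, adjusted p = 0.0111) and the glycogenin gene Gyg (1.27-fold, adjusted p = 0.0494). Of 9 tested genes of the NADH shuttles and related mitochondrial carriers 2 were higher, the dicarboxylate carrier Slc25a10 (2.23-fold, adjusted p = 0.0309) and the citrate carrier Slc25a1 (1.46-fold, adjusted p = 0.0138). In the pentose phosphate pathway 1 of 8 was higher, the transketolase gene Tkt (1.19-fold, adjusted p = 0.0435).

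Among 22 tested regulators of glucose use and growth, 2 were higher and 4 lower in Eos+ than in Eos- Tregs. That is 27.3% of the list, beside 16.3% of all tested genes (9.82% higher and 6.45% lower). Arrdc4, an arrestin-domain gene induced by glucose, stood at 59.1, 31.0, 38.4 and 37.3 CPM in Eos+ Tregs, 9.22, 1.85, 1.59 and 5.17 CPM in Eos- Tregs and at most 3.33 CPM in Tconvs. It was 9.35-fold higher in Eos+ than in Eos- Tregs (log2 3.22 ± 0.53 SE, adjusted p = 0.00137). Txnip, a relative also induced by glucose, overlapped between the populations, at 295 to 468, 380 to 913 and 365 to 841 CPM. Txnip was named after its values were seen. Phlpp1, a phosphatase of AKT, was 157 ± 34.6, 43.9 ± 18 and 6.70 ± 0.777 CPM in Eos+ Tregs, Eos- Tregs and Tconvs, 3.57-fold higher in Eos+ than in Eos- Tregs (adjusted p = 0.000607). Akt2 was 1.44-fold lower (171 ± 16.1 against 245 ± 13.3 CPM, adjusted p = 0.000695).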
